A study of Mus musculus with 5 samples.

Results

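The 10 genes described here are 3 effectors of the Hippo pathway, Yap1, Wwtr1 and Tead1, and 7 genes known as their targets, Ctgf, Cyr61, Ankrd1, Amotl2, Lats2, Axl and Ajuba. They were chosen by name, matched to their Ensembl gene identifiers, and are 10 of the 27729 genes in the deposited files. Ctgf and Cyr61 carry the newer symbols Ccn2 and Ccn1 in the annotation used here.

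Mouse embryonic fibroblasts (MEFs) of the ICR strain, taken from mid-gestation embryos without head and internal organs, were grown in medium with fetal bovine serum and then moved to a defined serum-free medium, 5C. This medium holds a basal medium with the N2 supplement, the source of insulin, as well as vitamin C, 2-mercaptoethanol and the factors bFGF and LIF, and the study used it to turn MEFs into cells with neuronal features. Total RNA was sequenced before the change (day 0) and on days 2, 5, 10 and 14, with 1 library per day. The labels call the medium 6C, and their text on treatment names day 15 where the last library is labelled day 14. The labels name no transgene or added agent other than the medium in any of the 5 groups. The number of cells per well in the labels also differs from that in the study's methods. Serum was removed when insulin and the growth factors were added, and per the study's methods the cells were replated on Matrigel, so the parts of the change cannot be told apart. The study also reports that the number of cells changed over the days, so cell density cannot be told apart from the day either. With 1 library per day no difference has a replicate check, no test was run, and each interval covers counting error only.

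The Hippo pathway is a chain of kinases in which Stk3 and Stk4 activate Lats1 and Lats2. The Lats kinases phosphorylate the coactivators YAP (gene Yap1) and TAZ (gene Wwtr1), which keeps them out of the nucleus. Unphosphorylated YAP and TAZ enter the nucleus and bind the TEAD proteins, which hold the DNA contact and switch on targets such as Ctgf, Cyr61 and Ankrd1. In cultured fibroblasts the pathway is known to respond to serum, cell density, the substrate and actin tension. The protein's place in the cell is not visible in RNA, so the data below are RNA levels only.

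Library totals ranged from 2253748 (day 2) to 3890334 expected counts (day 0), and 3 counts equal between 0.771 and 1.33 per 1000000 counts. All 10 genes reached 100 expected counts in at least 1 library. Together they took 0.438% of the counts on day 0 and 0.145%, 0.133%, 0.187% and 0.218% on days 2, 5, 10 and 14. All 10 fibroblast markers had 10 or more counts on every day, and their summed level was 1762 TPM (a level per gene length, scaled to 1000000 in each library) on day 0 and 1355, 4906, 9004 and 9358 TPM afterwards. Col1a1, Col1a2, Col3a1, Dcn and Lum made up most of that rise. Not all of the 10 rose: from day 0 to day 14 Thy1 went from 152 to 106 TPM and Twist2 from 72.55 to 19.7 TPM. Markers of other cells moved too. The summed level of 8 Schwann cell markers went from 9.09 TPM on day 0 (1 of 8 with 10 or more counts, Gjc3 at 0) to 15.8, 164, 1526 and 1436 TPM (8 of 8 on days 10 and 14). That of 10 macrophage markers went from 39.7 TPM (5 of 10, Ptprc at 0) to 245, 466, 319 and 243 TPM. Of these Itgam ended lower, at 0.97 TPM on day 14 against 4.53 TPM on day 0. The sum of 6 endothelial markers went down from 23.1 TPM on day 0 to 2.64 TPM on day 14. Most of this was Kdr (13.96 to 0.39 TPM) and Emcn (8.7 to 1.71 TPM). Pecam1 and Tie1 were at 0 on day 14, from only 1 and 1.28 expected counts on day 0. Cdh5 and Tek had 1 expected count each on day 0 and 2 each on day 14. The sum of 8 striated muscle markers went from 94.0 TPM to 13.8 TPM (Myod1, Myog and Actc1 at 0), with Des at 67.6 and 8.77 TPM. The sum of 8 epithelial markers stayed between 7.11 TPM on day 14 and 67.5 TPM on day 2, with Ocln at 0 on every day. The sum of 8 neuronal markers stayed between 51.1 and 119 TPM, with Rbfox3 at 0 on every day, but its members moved in opposite directions. From day 0 to day 14 Tubb3, the gene of the TuJ antigen, went from 4.19 to 55.75 TPM. Stmn2 went from 83.1 to 55.4 TPM and Map2 from 15.3 to 5.62 TPM. The sum of 8 genes of dividing cells was 147 TPM on day 0, 379 TPM on day 5 and 52.2 TPM on day 14. The part of these shifts in the values below was not tested, and in bulk RNA fewer cells of a type and less RNA per cell cannot be told apart.

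TEAD proteins bind DNA sites built around the 6 bases GGAATG, whose reverse complement is CATTCC. RefSeq promoter windows of 300 bases (GRCm38.p6, 250 bases before the transcript start and 50 after it) were at hand for 8 of the 10 genes, all but Ctgf and Tead1. Of these 8 genes 8 held GGAATG on either strand, against 16.6% of the 27025 genes with a window. The CArG box, the site of serum response factor, was in 0 of the 8, against 1.81% of all genes. A match to 6 bases is a description of the sequence and not evidence of binding. The 10 matches are printed 5′ to 3′ on the strand of their gene. Each match is in capitals, with 12 bases on either side in lower case. The capitals are alike by construction, since the windows were searched for these bases.
Cyr61: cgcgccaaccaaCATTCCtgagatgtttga
Ankrd1, distal: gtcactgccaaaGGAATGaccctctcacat
Ankrd1, proximal: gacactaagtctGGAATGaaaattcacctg
Amotl2: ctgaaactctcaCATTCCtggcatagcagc
Lats2: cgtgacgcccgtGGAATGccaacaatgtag
Axl: ggaaattctacaGGAATGtttaccagaccc
Ajuba, distal: cgttgatggataCATTCCacagtgcccctc
Ajuba, proximal: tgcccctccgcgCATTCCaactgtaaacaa
Yap1: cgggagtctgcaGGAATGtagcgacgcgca
Wwtr1: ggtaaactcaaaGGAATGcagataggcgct

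The Cyr61 match began 103 bases before the start (chr3:145650071-145650100, minus strand), and the Amotl2 match 65 bases before it (chr9:102717727-102717756, plus strand). The Ankrd1 matches began 210 bases (chr19:36120037-36120066, minus strand) and 123 bases (chr19:36119950-36119979) before the start. Those of Ajuba began 186 bases (chr14:54577830-54577859, minus strand) and 164 bases (chr14:54577808-54577837) before it. The matches of Axl (chr7:25788949-25788978), Yap1 (chr9:8004720-8004749) and Wwtr1 (chr3:57576029-57576058), all on the minus strand, began 233, 141 and 136 bases before the start. The Lats2 match was the only one after a start, by 5 bases (chr14:57746102-57746131, minus strand), and the second Lats2 window had none. In the GENCODE M21 annotation the matches of Cyr61, Axl, Ajuba, Yap1 and Wwtr1 lay upstream of the gene, and those of Ankrd1, Amotl2 and Lats2 within an annotated exon of it.

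In normalized counts, RNA of the coactivators stayed within 2-fold of day 0 on every day, but in TPM Yap1 exceeded 2-fold on day 10 and Wwtr1 on days 5, 10 and 14. Yap1 (chr9:7931999-8004596, minus strand), the gene of YAP, had 472 normalized counts on day 0, then 349, 559, 577 and 474 on days 2, 5, 10 and 14. Normalized counts are expected counts scaled for library size and composition, and they compare 1 gene between days. The log2 change of Yap1 against day 0 was −0.44 (95% counting interval −0.68 to −0.19), 0.24 (0.07 to 0.42) and 0.29 (0.12 to 0.46) on the first 3 of these days. On day 14 it was 0.01 (−0.18 to 0.19), and −0.02 with the size factors of DESeq2. Relative to genes of like length the Yap1 values on days 5, 10 and 14 were −0.03, −0.26 and −0.33, below 0. In TPM, a scale on which the median gene was also higher, its log2 change was 0.94, 1.48 and 0.89 on days 5, 10 and 14. An antisense gene, Gm20416, shares 116 exonic bases with Yap1 and had 0 counts in all 5 libraries.

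Wwtr1 (chr3:57455649-57575910, minus strand), the gene of TAZ, had its lowest level on day 0. It had 308 normalized counts on day 0 and 492, 544, 573 and 383 on days 2, 5, 10 and 14. The log2 changes were 0.67 (0.44 to 0.92), 0.82 (0.62 to 1.02), 0.89 (0.71 to 1.09) and 0.31 (0.10 to 0.53), all 4 above 0, though relative to genes of like length the values on days 10 and 14 were −0.03 and −0.19. Other scalings put it further up, with 1.49, 2.02 and 1.16 in TPM on days 5, 10 and 14, and 1.19 and 1.37 on days 5 and 10 when counts were scaled by library totals alone. From day 10 to day 14 Wwtr1 was lower again, with a log2 change of −0.58 (−0.75 to −0.41). Per length, on the TPM scale, Wwtr1 stood at 0.573 of the Yap1 level on day 0 (0.494 to 0.661). On day 2 this ratio was 1.24 (1.02 to 1.5), the 1 day on which TAZ RNA exceeded YAP RNA. On days 5, 10 and 14 it was 0.856 (0.765 to 0.957), 0.849 (0.769 to 0.937) and 0.699 (0.614 to 0.796), between the ratios of days 0 and 2.

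Tead1 (chr7:112679318-112906807, plus strand) encodes a DNA-binding partner of YAP and TAZ. It had 593 normalized counts at the start and 362, 398, 829 and 493 on the 4 later days, so that day 10 stood highest. Its log2 change was −0.71 on day 2 (−0.95 to −0.48) and 0.48 on day 10 (0.34 to 0.63), the latter −0.44 relative to genes of like length and 1.56, over 2-fold, in TPM. On day 5 it was −0.57 (−0.75 to −0.40), with 0.09 in TPM. On day 14 it was −0.26 (−0.43 to −0.10), with 0.09 in unadjusted library-size scaling (counts scaled by library totals alone) and 0.54 in TPM. These directions against day 0 thus depend on the scaling. Relative to the median of all genes Tead1 stayed below 0, at −0.52 in TPM on day 5. On day 14 it was then −0.33 by library totals and −0.24 in TPM. The step from day 5 to day 10 was the largest of Tead1, with a log2 change of 1.06 (0.90 to 1.22).

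Among the 4 TEAD genes Tead2 took the largest share on every day, and a larger one on each day after day 0. On day 0 its lead was within counting error. The intervals were 22.6 to 31.3 TPM for Tead2, 20.0 to 27.2 TPM for Tead3 and 20.9 to 24.6 TPM for Tead1. Over 2-fold below day 0 lay 2, 1, 1 and 1 of the 4 on days 2, 5, 10 and 14, where 13.1%, 13.6%, 22.3% and 19.9% of the 13346 genes that reached 10 expected counts in any library did. Over 2-fold above it lay 0, 1, 1 and 1, where 15.2%, 20.2%, 28.7% and 24.5% of all genes did. A single gene of 4 is near these shares. Tead1 made up 28.3% of their summed TPM before the change of medium, and 23.3%, 14.2%, 24.6% and 14.9% on the later days. Tead2 made up 33.2% on day 0 and 61.2%, 52.4%, 50.5% and 56.7% afterwards. Its normalized counts were 149, 257, 335, 364 and 384 from day 0 to day 14, and its log2 change on day 14 was 1.36 (1.09 to 1.64). Tead3 had 29.1% of the sum on day 0, 10.1% on day 2 and 28.0% on day 14, with normalized counts of 164, 54.3, 219, 221 and 247. Tead4 went from 9.35% of the sum on day 0 to 0.448% on day 14, when 3 expected counts were left of 45.9 at the start (log2 change −3.66, −6.42 to −2.45).

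**Figure D1:**
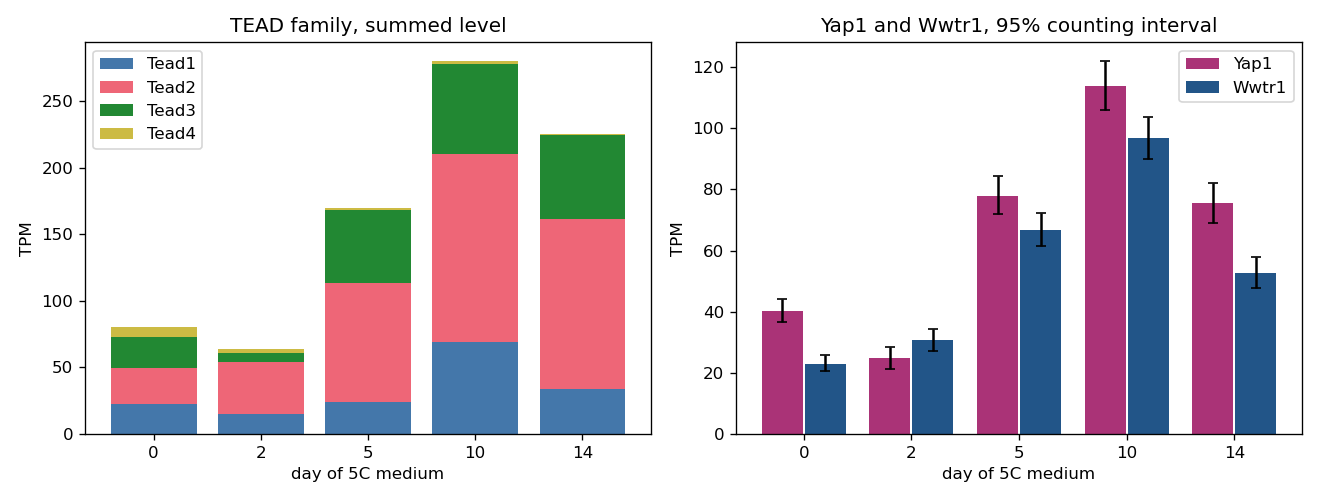
Left, summed level of the 4 TEAD genes in TPM on each day, stacked by gene; right, levels of Yap1 and Wwtr1 in TPM with 95% counting intervals, 1 library per day. Tead2 takes 33.2% of the sum on day 0 and 50.5% to 61.2% later, and Wwtr1 exceeds Yap1 on day 2 alone; the height of the bars follows the TPM scale, on which the median gene was also 1.09 higher (log2) on day 10 than on day 0.

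Of the secreted targets, Ctgf stood far below day 0 on every later day, and Cyr61 most clearly on days 5 and 10. Ctgf (chr10:24595442-24598683, plus strand) encodes connective tissue growth factor, a matrix-associated protein that fibroblasts secrete. It had 5009 normalized counts on day 0 and 429, 214, 129 and 157 on days 2, 5, 10 and 14, so that no later library came near day 0. Already on day 2 it was 11.7-fold lower (log2 change −3.54, −3.74 to −3.36). By day 10 it was 38.4-fold lower (−5.26, −5.50 to −5.06) and by day 14 31.7-fold lower (−4.99, −5.22 to −4.78). From day 10 to day 14 the counting interval of its log2 change held 0 (0.28, −0.02 to 0.59). The antisense gene Gm15270, which shares 665 exonic bases with Ctgf, had at most 4.59 expected counts in a library. The kit did not keep strand, so reads from the shared bases cannot be told apart.

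Cyr61 (chr3:145646976-145649981, minus strand), a secreted relative of Ctgf in the CCN family, went down and then up again. Its normalized counts were 5183 before the change and 1760, 733, 791 and 2142 after it. On days 5 and 10 it was 7.06-fold (log2 change −2.82, −2.93 to −2.72) and 6.55-fold (−2.71, −2.81 to −2.62) below day 0. From day 10 to day 14 it was 2.71-fold higher, with a log2 change of 1.44 (1.33 to 1.54), and it was then 2.42-fold below day 0 (−1.27, −1.35 to −1.20). This last value was −0.92 by library totals and −0.40 in TPM, so that Cyr61 was within 2-fold of day 0 on day 14 under those scalings. Over that step the interval of Ctgf held 0.

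Ankrd1 (chr19:36111961-36120099, minus strand), which encodes an ankyrin repeat protein of nucleus and sarcomere, was lower in each later library than in the one before. It had 631 normalized counts at the start and then 161, 47.3, 7.14 and 3.58, the last 2 from 10 and 4 expected counts. The log2 changes were −1.96 (−2.31 to −1.65), −3.71 (−4.17 to −3.34), −6.28 (−7.53 to −5.58) and −7.11 (−9.34 to −6.10). The step from day 10 to day 14 was within counting error (−0.83, −3.13 to 0.80). Its highest library exceeded its lowest 176-fold, against 38.7-fold for Ctgf and 1.66-fold for Yap1.

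**Figure D2:**
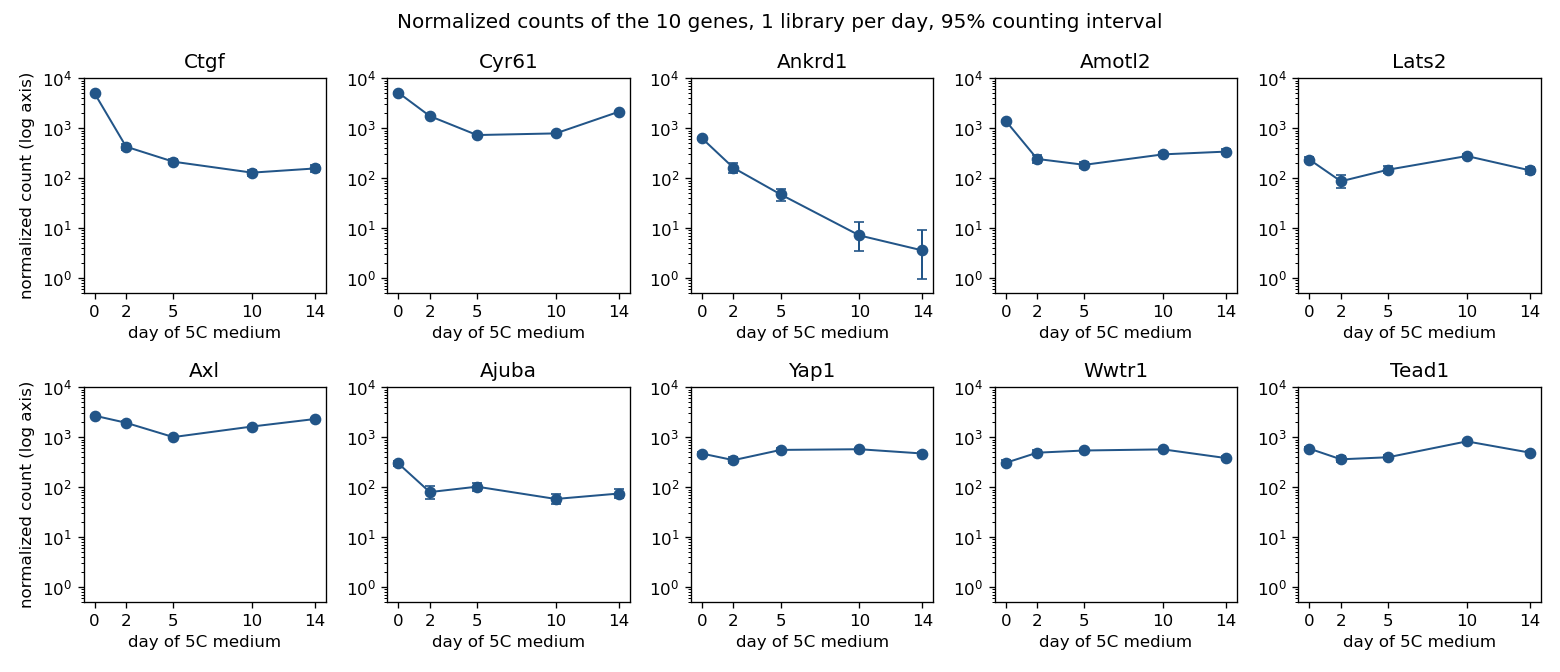
Normalized counts of the 10 genes (log axis) against the day of 5C medium, 1 library per day, with 95% counting intervals; lines join the days. Ctgf and Ankrd1 go down to 157 and 3.58 normalized counts on day 14, Cyr61 turns up after day 10 to 2142, and Yap1 stays between 349 and 577.

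Axl (chr7:25757273-25788705, minus strand), the gene of a receptor tyrosine kinase for Gas6, was lowest on day 5 in normalized counts. These were 2713, 1954, 1011, 1645 and 2327 from day 0 to day 14. The log2 change was −0.47 on day 2 (−0.58 to −0.37) and −1.42 on day 5 (−1.52 to −1.32). In TPM both days were alike, with −0.73 on day 2 and −0.70 on day 5, so that Axl did not pass 2-fold on that scale. On day 10 it was −0.72 (−0.80 to −0.64), with 0.47 in TPM. On day 14 it was −0.22 (−0.30 to −0.14), with 0.14 in scaling by library totals and 0.68 in TPM. Its direction against day 0 on these days thus depends on the scaling. Relative to the median of all genes Axl stayed below 0, at −0.62 in TPM on day 10. On day 14 it was then −0.29 by library totals and −0.10 in TPM.

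The other targets act back on the pathway. Amotl2 (chr9:102716672-102733418, plus strand) encodes an angiomotin, which binds YAP and holds it in the cytoplasm. It had 1412 normalized counts on day 0 and 243, 186, 301 and 341 on days 2, 5, 10 and 14, all 4 below day 0. It was 7.58-fold below day 0 on day 5 (log2 change −2.92, −3.14 to −2.72) and 4.13-fold below on day 14 (−2.04, −2.21 to −1.88). In TPM its log2 change was −1.99 on day 5 and −1.08 on day 14. From day 5 to day 10 it was 1.62-fold higher (0.69, 0.46 to 0.94).

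Ajuba (chr14:54567472-54577558, minus strand) encodes a LIM protein of cell junctions that binds Lats kinases and restrains them. Its normalized counts were 299 on day 0 and 79.9, 103, 58.2 and 74.7 on the later days. The log2 changes were −1.89 (−2.40 to −1.45), −1.54 (−1.87 to −1.24), −2.34 (−2.75 to −2.02) and −1.99 (−2.36 to −1.64). In TPM they were −2.02, −0.80, −1.14 and −1.07, within 2-fold on day 5. All 4 later libraries had between 44.2 and 117 expected counts, against 303 on day 0.

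Lats2 (chr14:57689662-57758388, minus strand), the kinase that inactivates YAP and TAZ, was lowest on day 2 and highest on day 10. It started from 237 normalized counts and had 86.8, 148, 278 and 144 on days 2, 5, 10 and 14. For days 2, 5 and 14 the log2 change was −1.44 (−1.92 to −0.99), −0.67 (−0.97 to −0.39) and −0.71 (−1.01 to −0.42). On day 10 it was 0.23, with an interval from just under 0 to 0.47, and −0.31 relative to genes of like length. RSEM's length for Lats2, an average over its transcripts weighted by their abundance, was 2987 bases at first, 2806 on day 2 and 4758, 5054 and 4788 on days 5, 10 and 14. The gene shares 2955 exonic bases with Gm49361 on the same strand, a gene not analysed here, so its counts are uncertain.

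**Figure D3:**
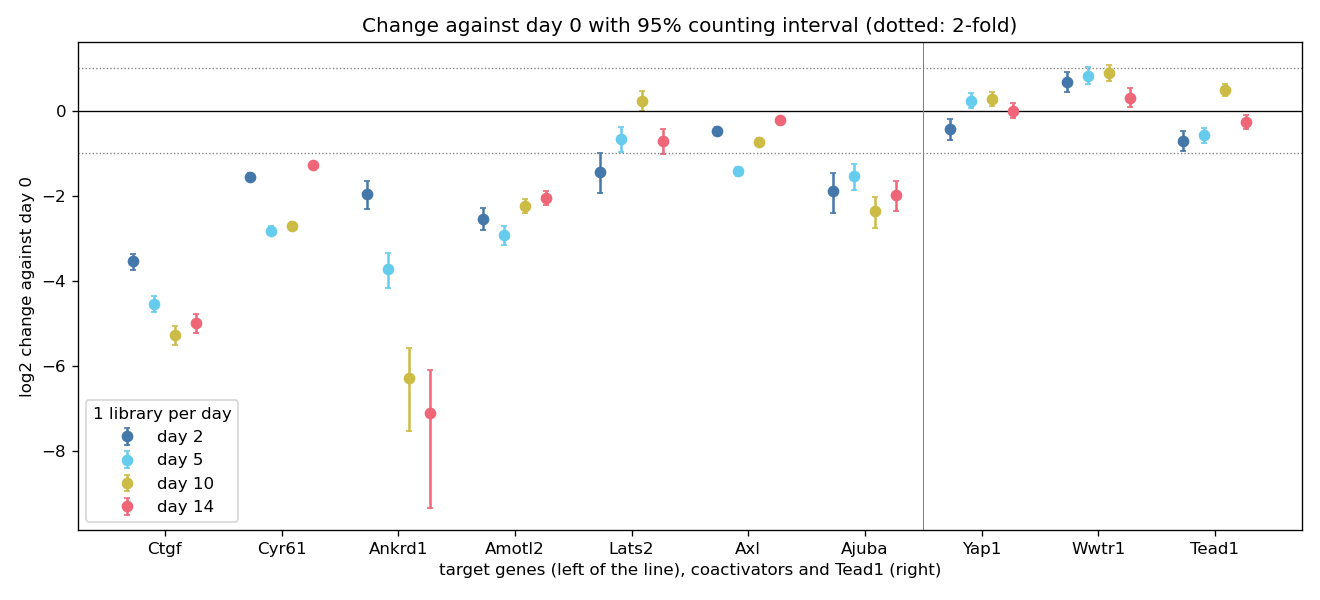
Log2 change of each gene against day 0 on days 2, 5, 10 and 14, with 95% counting intervals; dotted lines mark 2-fold, and the vertical line divides the 7 targets (left) from Yap1, Wwtr1 and Tead1 (right). 5 targets lie below the lower line on every day, while the 3 effectors stay between the lines. In TPM Cyr61 (day 14), Ajuba (day 5) and Axl (day 5) cross back over the lower line, and Wwtr1 (days 5, 10 and 14), Yap1 and Tead1 (day 10) pass the upper one. The signs of Axl (days 10 and 14), Tead1 (days 5 and 14) and Yap1 (day 14) depend on the scaling. Relative to the median of all genes those of Axl and Tead1 stay below 0. The signs of Yap1, Wwtr1, Tead1 and Lats2 on day 10, of Yap1 on day 5 and of Wwtr1 on day 14 turn relative to genes of like length.

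Counted over the list, 6 of the 10 genes lay over 2-fold below day 0 on day 2, against 13.1% of all 13346 genes kept. On day 5 it was 6 of 10, against 13.6% of all genes. On day 10 and on day 14 it was 5 of 10, against 22.3% and 19.9% of all genes. All of these were targets, and 5 of them, Ctgf, Cyr61, Ankrd1, Amotl2 and Ajuba, were counted on every day in normalized counts. Lats2 was the sixth on day 2 and Axl on day 5. Other scalings lost some of these: in TPM 4 of 10 were counted on day 5, without Axl and Ajuba, and 4 on day 14, without Cyr61, which library totals also left out on day 14. Relative to the median of all genes in TPM, these values were −1.31 for Axl and −1.41 for Ajuba on day 5 and −1.19 for Cyr61 on day 14. None of the 10 genes lay over 2-fold above day 0 (0 on each day), against 15.2%, 20.2%, 28.7% and 24.5% of all genes on days 2, 5, 10 and 14. In TPM, however, Wwtr1 was over 2-fold above day 0 on days 5, 10 and 14, and Yap1 and Tead1 on day 10. On that scale so were 4269, 7055 and 5548 of all 13346 genes on days 5, 10 and 14, more than in normalized counts. The 4 comparisons share the day 0 library and are not independent of each other.

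The median log2 change of the 10 genes was −1.50, −1.48, −1.47 and −0.99 on days 2, 5, 10 and 14, beside −0.03, 0.05, 0.14 and 0.07 over all genes. For the 7 targets alone it was −1.89, −2.82, −2.34 and −1.99. TPM values moved the median of all genes by −0.17, 0.56, 0.95 and 0.72, and scaling by library totals without TMM, edgeR's correction for composition, by −0.08, 0.37, 0.46 and 0.35. Relative to the median of all genes, the change of Ctgf on day 14 was −5.06 in normalized counts and −4.80 in TPM, and that of Ankrd1 −7.18 and −6.57. Taken the same way, Cyr61 stood at −1.34 in normalized counts and Wwtr1 at 0.25 and 0.37.

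Levels between genes were compared in TPM. On day 0 the order was Cyr61 (902 TPM), Ctgf (737 TPM), Axl (224 TPM), Amotl2 (146 TPM), Ankrd1 (126 TPM) and Yap1 (40.3 TPM), all apart beyond counting error. Ajuba, Lats2, Wwtr1 and Tead1 followed between 30.1 and 22.7 TPM, with intervals that overlapped between neighbours. On day 14 Cyr61 (684 TPM) and Axl (359 TPM) led, and Yap1 (75.4 TPM) and Amotl2 (68.8 TPM) overlapped behind them. Wwtr1 (52.7 TPM) and Ctgf (44.6 TPM) overlapped next, ahead of Tead1 (33.6 TPM). Lats2 (19.4 TPM) and Ajuba (13.8 TPM) overlapped, and Ankrd1 (1.31 TPM) was last. Thus Ctgf moved from the second to the sixth place and Ankrd1 from the fifth to the tenth.

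Changes of all genes followed gene length. With the genes cut by length into 5 bins of like number, the median log2 change on day 10 was −1.15 in the bin of shortest genes and −0.29, 0.16, 0.55 and 0.92 in the next ones. For day 14 it ranged from −0.78 in the shortest to 0.50 in the longest. The 3 genes that stood lowest on day 10 were the shortest of the 10, with 1765 bases for Ankrd1, 2028 for Cyr61 and 2356 for Ctgf, against 8938 for Tead1. Relative to the median of their own length bin the differences were still −5.42 for Ctgf, −5.99 for Ankrd1 and −2.42 for Cyr61 on day 10. On this scale 6 of the 10 genes lay over 2-fold below on each of the 4 days and 0 above. The share of all genes beyond 2-fold on this scale was not computed, so these counts stand without a background.

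**Figure D4:**
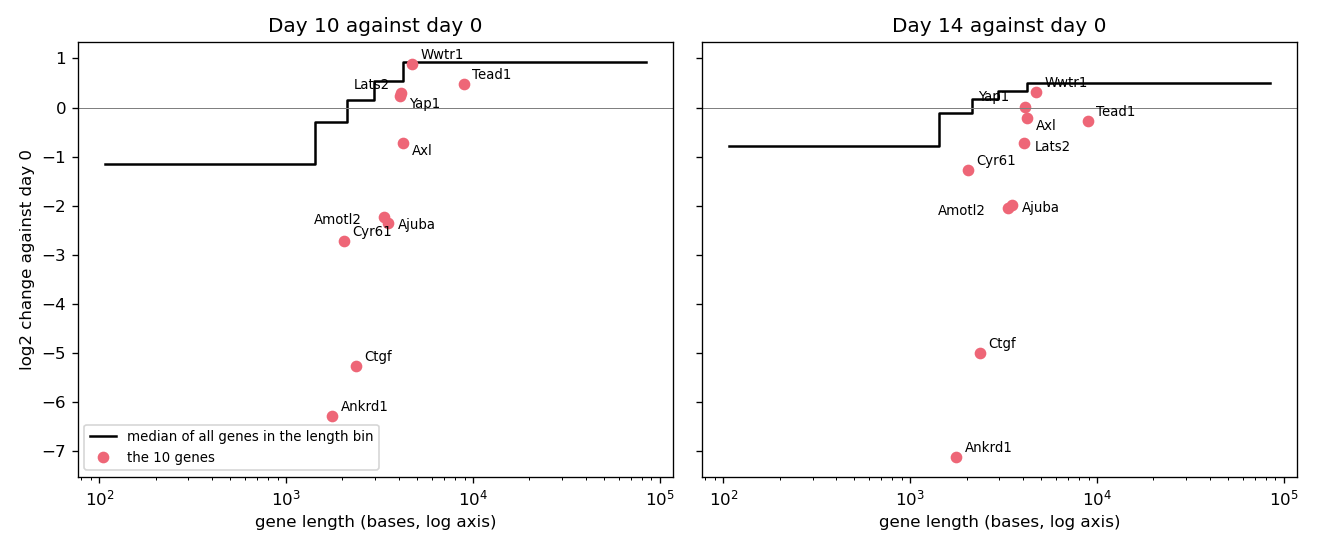
Log2 change against day 0 on day 10 (left) and day 14 (right) against gene length (bases, log axis), with the median of all genes in each of 5 length bins as a black line and the 10 genes as points. The line climbs from −1.15 to 0.92 on day 10, Ctgf, Ankrd1, Cyr61, Amotl2 and Ajuba lie over 2-fold below it on both days, and Yap1, Wwtr1, Tead1 and Lats2, above 0 on day 10 by themselves, lie below the line.

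The upstream part of the pathway was read from 22 other Hippo kinases, scaffolds and regulators. Of these, 8, 5, 3 and 4 lay over 2-fold below day 0 on days 2, 5, 10 and 14, and 0, 2, 7 and 5 above. As shares these were 36.4%, 22.7%, 13.6% and 18.2% below, where 13.1%, 13.6%, 22.3% and 19.9% of all genes lay, and 0%, 9.09%, 31.8% and 22.7% above, where 15.2%, 20.2%, 28.7% and 24.5% lay. On days 10 and 14 the list was thus near or under the shares of all genes. The medians were −0.67, −0.07, 0.47 and −0.04. In TPM the medians were −0.79, 0.45, 1.46 and 0.77, where those of all genes were −0.20, 0.61, 1.09 and 0.78. The sign on days 5 and 14 thus depends on the scaling, while on these days the list lay slightly below the median of all genes on both scales. Ptpn14, a phosphatase that binds YAP, had 518 normalized counts on day 0 and 338, 404, 453 and 143 later (log2 change on day 14 −1.85, −2.12 to −1.60). Vgll3, a TEAD cofactor, had 565 on day 0 and 155, 132, 317 and 156 later (−1.85, −2.11 to −1.61). Vgll4, which competes with YAP for TEAD, had 32.7 normalized counts on day 0, 1.81 on day 2 from 1 expected count, and 57.7, 124 and 138 on days 5, 10 and 14. Its log2 change on day 2 was −3.58 (−9.52 to −1.60) and on day 14 2.04 (1.53 to 2.66). Frmd6, a scaffold upstream of the kinases, had 260 on day 0 and 239, 276, 702 and 697 later (1.42, 1.22 to 1.63).

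A further 16 genes known to respond to YAP and TAZ lay on both sides of day 0. Of these, 5, 3, 6 and 5 lay over 2-fold below day 0 on days 2, 5, 10 and 14, and 0, 2, 3 and 3 above. These were 31.3%, 18.8%, 37.5% and 31.3% of the list below, where 13.1%, 13.6%, 22.3% and 19.9% of all genes lay, and 0%, 12.5%, 18.8% and 18.8% above, where 15.2%, 20.2%, 28.7% and 24.5% lay. The medians were −0.53, −0.34, −0.19 and −0.77. In TPM the medians were −0.79, 0.30, 0.87 and 0.06, where those of all genes were −0.20, 0.61, 1.09 and 0.78. The list was thus above 0 on the last 3 days in TPM, but below the median of all genes on each day. Crim1, a membrane protein that binds bone morphogenetic proteins, had 466 normalized counts on day 0 and 130, 123, 120 and 65.3 later (log2 change on day 14 −2.82, −3.21 to −2.48). Igfbp3, a secreted binding protein of insulin-like growth factors, had 309 on day 0 and 492, 1039.5, 1447 and 2496 later (3.01, 2.85 to 3.19). Gadd45a, a stress-response gene, had 123 on day 0 and 206, 605, 299 and 695 later (2.49, 2.23 to 2.79). Ptpn14, given above, is also in this list.

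Of the 6 CCN genes, 5 were kept and Ccn6 had 0 counts in every library, which allows up to 3 counts in each. Beside Ctgf and Cyr61, Ccn4 and Ccn5 were over 2-fold below day 0 on every day in normalized counts. This was 80.0% of the 5, where 13.1%, 13.6%, 22.3% and 19.9% of all genes lay on days 2, 5, 10 and 14. In TPM Cyr61 and Ccn4 were within 2-fold on day 14, Ccn4 with 30.1 TPM against 52.3 TPM on day 0. Ccn4 had 759 normalized counts on day 0 and 157, 133, 111 and 238 later. Ccn5, which lacks the C-terminal domain of its relatives, had 482 on day 0 and 99.5, 115, 63.6 and 114 later. Ccn3 went the other way, with 93.0 on day 0 and 177, 495, 435 and 163 later, over 2-fold above day 0 on days 5 and 10. As 20.0% of the list it was near or under the 20.2% and 28.7% of all genes above on these days.

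Serum response factor is a second regulator that serum and actin tension are known to switch on in fibroblasts, and Ctgf, Cyr61 and Ankrd1 are known to respond to it too. Of 15 genes of this factor and of the actin cytoskeleton, 8, 12, 12 and 12 lay over 2-fold below day 0 on days 2, 5, 10 and 14, and 0, 0, 2 and 0 above. The share below was 53.3% on day 2 and 80.0% on each later day, where 13.1% and then 13.6% to 22.3% of all genes lay. The medians were −1.0, −2.68, −3.05 and −3.09, further below 0 than those of the 7 targets on days 10 and 14. In TPM they were −1.59, −1.59, −1.74 and −2.09, where those of all genes were −0.20, 0.61, 1.09 and 0.78. Flna, Zyx and Mrtfa were over 2-fold below day 0 on day 14 in normalized counts but not in TPM. From day 0 to day 14 Flna went from 733 to 876 TPM, Zyx from 406 to 218 TPM and Mrtfa from 21.5 to 18.1 TPM. Acta2, smooth muscle actin, had 32045 normalized counts on day 0 and 3325, 666, 253 and 142 later (log2 change on day 14 −7.81, −8.05 to −7.59). Cnn1, calponin, had 357 on day 0 and 2.68 on day 14 from 3 expected counts (−6.60, −9.34 to −5.50). Vcl, vinculin of focal adhesions, had 404 on day 0 and 447, 333, 1052 and 702 later (0.79, 0.62 to 0.97). Mrtfb, a coactivator of serum response factor, had 70.7 on day 0 and 100, 97.1, 171 and 108 later (0.61, 0.19 to 1.07).

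**Figure D5:**
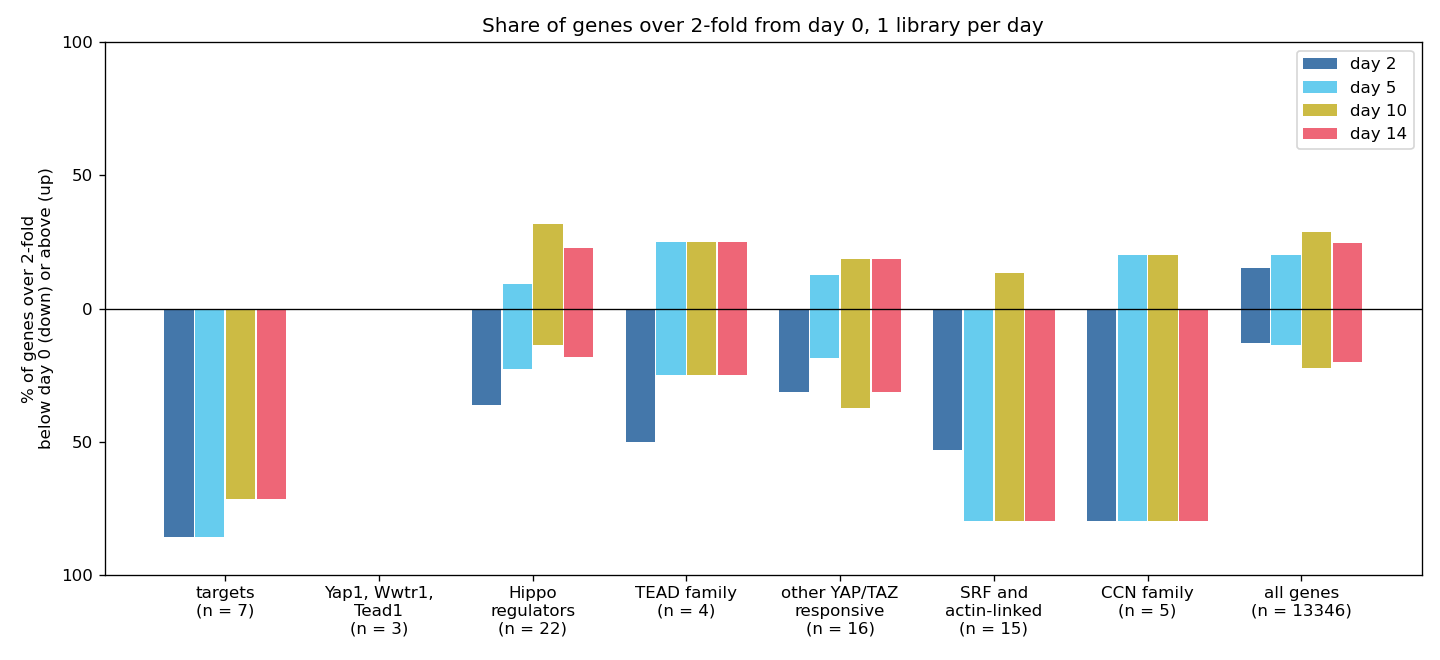
Percent of the genes of each list over 2-fold below day 0 (bars down) or above it (bars up) on each day, 1 library per day; n is the number that reached 10 expected counts in any library, and the lists of TEAD and CCN genes hold Tead1, Ctgf and Cyr61 again. In normalized counts the 7 targets and the 15 genes of serum response factor and actin lie mostly below day 0. Their bars reach 71.4% to 85.7% and 53.3% to 80.0%, and Yap1, Wwtr1 and Tead1 have none.

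The genes whose log2 changes over the 4 later days were nearest to those of a target were searched for in the 8273 genes that reached 100 expected counts in any library, by the root mean square difference. For Ankrd1 they were Coch (0.23), Col2a1 (0.42) and Actg2 (0.42). Coch and Col2a1 reached 100 expected counts on day 0 only. On days 10 and 14 Coch had 3 and 1 expected counts, Col2a1 8.7 and 3, and Ankrd1 itself 10 and 4. These distances thus rest in part on few counts, and the order of the genes is not settled by them. Actg2, smooth muscle gamma actin, had 1523 expected counts on day 0 and 225, 109, 39 and 17 later. Coch, the gene of the matrix protein cochlin, started at 255 expected counts and ended at 1, and Col2a1, the collagen of cartilage, started at 606 and ended at 3. For Ctgf the nearest genes were farther away, with 0.57 for Eno3, 0.73 for Slc1a6 and 0.74 for Foxs1. The same limit holds there, since on days 10 and 14 Slc1a6 had 4 and 5 expected counts and Foxs1 3 and 4. For Cyr61 they were Stmn2 (0.41), Csrnp1 (0.43) and its family member Ccn4 (0.43), all 3 lower on days 5 and 10 and higher again on day 14. Col2a1 and Actg2 mark cartilage and smooth muscle cells, whose part in these values was not tested.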

How the data were processed

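Total RNA of MEFs was profiled in 5 libraries, 1 per day, grouped by the day in their labels. The authors deposited expected counts from RSEM, not scaled for library size, TPM values, scaled by length and library, and FPKM values, which were not used. The submitters' processing notes name Bowtie, RSEM and mm10, with versions and annotation not given in the sources used here. The library kit (TruSeq RNA) did not keep strand.

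GENCODE M21 (GRCm38) gave symbols for 27247 of 27729 genes. Expected counts were rounded to compute library sizes with TMM in edgeR 4.0.16 (R 4.3.3), with factors of 0.856, 0.808, 1.11, 1.19 and 1.10 from day 0 to day 14, then divided by these sizes and scaled to their geometric mean. Log2 changes used a pseudocount of 1, so they understate changes of low genes. Intervals (95%, exact, Clopper-Pearson) used rounded counts and no pseudocount. Since reads carried no molecular identifiers, intervals and floors of 3 counts cover counting error only. A gene was kept if it reached 10 expected counts in any library, and counted if beyond 2-fold. No test or p-value was possible with 1 library per day.

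The 10 genes are always named. Of each pathway list, those named were the TEAD and CCN genes and the 2 genes lowest and the 2 highest on day 14 that reached 100 expected counts in any library, and for Ankrd1, Ctgf and Cyr61 the 3 genes of nearest pattern. Genes and lists were chosen with earlier results of these data known. Lengths are means of RSEM's gene lengths over the 5 libraries, and the 5 length bins hold about equal numbers of kept genes. Alternatives were DESeq2 size factors (1.42.0), scaling by library totals without TMM, TPM, a pseudocount of 5, other filters, a 4-fold threshold, means for medians, and library sizes without Gm42418 and Lars2. The comparison within length bins was chosen after seeing the data. The calculations were tested on simulated data. The software was Python 3.11.15, with matplotlib 3.10.9, pandas 2.3.3, scipy 1.17.1 and numpy 2.4.6. Promoter windows came from RefSeq.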

Additional observations from a re-analysis of the deposited data

How the results depend on the processing

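The main limits are the single library per day, the smaller depth of day 2 and the few counts of Ankrd1 on days 10 and 14. No paired analysis was possible because each day had 1 library. Of 40 log2 changes of the 10 genes (4 days each), 40 moved by less than their counting interval with DESeq2 size factors, 40 with a pseudocount of 5 and 40 with library sizes without Gm42418 and Lars2. With scaling by library totals, without TMM, 27 moved further and 2 changed sign, with TPM 32 and 4, and within length bins 21 and 7. All of these sign changes were of values within 2-fold of day 0. In TPM the median of the 10 genes was −0.75, −0.32 and −0.45 on days 5, 10 and 14, by library totals −1.11, −1.0 and −0.64, and as a mean of normalized counts −1.71, −1.76 and −1.83. Within length bins it was −1.79 on day 5 and −2.03 on day 10. Over 2-fold above day 0 were 1, 3 and 1 of the 10 genes in TPM on days 5, 10 and 14, and 1 on day 5 and 1 on day 10 by library totals. The number over 2-fold below day 0 was 4 in TPM on days 5 and 14 and 4 by library totals on day 14, against 6 and 5. At 4-fold, 2 genes lay below day 0 on day 2 and 3 on day 14. Over all genes, the TPM counts over 2-fold below day 0 were 531, 904 and 929 on days 5, 10 and 14, and those above 1055, 4269, 7055 and 5548 on days 2 to 14. Library totals gave 1007 below on day 5 and 1929 on day 10, and 3819 and 5242 above on these days. The 4-fold threshold gave 390, 371, 1057 and 815 below and 715, 1161, 1850 and 1560 above on days 2, 5, 10 and 14. With 100 or more expected counts, 932, 1195 and 1711 genes lay below on days 2, 5 and 14, and 910, 1302, 2059 and 1752 above on the 4 days. Without a filter 3529 lay above on day 2. The causes of these shifts were not tested, apart from the stricter threshold and filters, which leave fewer genes by construction.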

Other observations

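Lats1, the second Lats kinase, was not among the genes named by the rule and was looked at after its values were seen, as the partner of Lats2. It had 111 normalized counts on day 0 and 66.9, 105, 255 and 173 on days 2, 5, 10 and 14, with log2 changes of −0.72 (−1.31 to −0.18), −0.07 (−0.46 to 0.31), 1.2 (0.90 to 1.52) and 0.64 (0.30 to 0.99). Srf, the gene of serum response factor itself, also chosen after its values were seen, had 324 normalized counts on day 0 and 291, 151, 116 and 173 later. Its log2 change on day 10 was −1.47 (−1.76 to −1.20), and −0.29 in TPM. RSEM's length of Tead1 was 7063 bases on day 2 and between 9153 and 9512 bases on the other days.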
